A study of Caenorhabditis elegans with 12 samples.

Results

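The *clec-* genes of *Caenorhabditis elegans* encode proteins with a C-type lectin-like domain. They were taken from the mRNA read-count table as the rows whose identifier carries a WormBase (WBcel235) gene name starting with *clec-* and whose mean level over the 12 libraries reached 0.3 CPM, where CPM is the count of a gene per 1000000 counts of its library. Of 240 *clec-* genes with a row, among 46653 gene rows in all, 90 met this rule, and 150 did not. The rule averaged over all libraries and did not use any difference between strains. Just inside the threshold lay *clec-74* (0.362 CPM before scaling) and *clec-43* (0.369 CPM), and just outside lay *clec-224* (0.299 CPM) and *clec-233* (0.279 CPM).

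The study asked how loss of the RNAi factor RDE-4 and reduced insulin/IGF-1 signaling (IIS) change gene expression, alone and together. There were 4 strains with 3 independent worm populations each: WT (N2), *rde-4(ne301)*, *age-1(hx546)* and the double mutant *age-1(hx546); rde-4(ne301)*. *rde-4(ne301)* is a null allele of a gene whose product binds double-stranded RNA and works with Dicer, and *hx546* is a missense allele of *age-1*, the phosphatidylinositol 3-kinase of the IIS pathway, which lowers IIS only moderately. All populations were fed *E. coli* OP50 at 20 °C and collected on the first day of adulthood, before embryos were visible, and the mutant strains had been outcrossed to N2. RNA came from whole worms, so fewer cells of a type and less RNA per cell cannot be told apart.

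C-type lectin domains bind sugars in many animal proteins, and the *C. elegans* family is one of the largest in its genome. Most members are predicted to be secreted or membrane proteins, and many are made in the intestine and change on contact with bacteria, so the family is often read as a part of innate immunity. IIS and its target DAF-16/FOXO are known to act on immune genes, the lysozyme gene *lys-7* among them. Most single *clec-* genes have no known function.

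The libraries were of like depth, from 74501098 to 82446102 counts. The *rde-4* transcript lay between 25.4 and 31.99 CPM in the 6 libraries labelled with *ne301* and between 138 and 201 CPM in the other 6, while *hx546* is a missense change that transcript levels do not check. Levels below are CPM after TMM scaling, a correction for differences in library composition, and SD is over 3 populations. Markers of the intestine, oocytes, sperm and cuticle were detected in every strain, with no marker at 0 over a whole strain. Replicate 1 of *age-1; rde-4* stood apart from the other 2 populations of its strain, with a chi-square per gene of 187 and 154 against them and of 32.4 between those 2. Its oocyte markers summed to 6164 CPM against 11079.9 and 10915 CPM, and its sperm markers to 346 CPM against 239 and 213 CPM. WT replicate 1 also stood apart within its strain, though less far. Its chi-square per gene was 108 against WT replicate 2 and 93.2 against WT replicate 3, with a lower value between replicates 2 and 3. WT is the baseline of both comparisons of a single mutant with WT. Differences were tested with edgeR's quasi-likelihood test on all 16741 genes that passed a filter on low counts, with p-values adjusted for all of them by the Benjamini-Hochberg method. All 90 C-type lectin genes passed the filter, and a gene is called below where its adjusted p is under 0.05. Where strains are said not to overlap for a called gene, this describes the libraries that gave the call. It is no further support, and the share of all genes without overlap was not counted. The p-values rest on the spread between the 3 populations of each strain.

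A few genes carried most of the C-type lectin RNA. The summed level of the 90 genes was 3729.8 to 3959.6 CPM for WT libraries, 3014 to 3369.8 CPM for *rde-4*, 3097 to 3691 CPM in *age-1* and 3083 to 4139.9 CPM in *age-1; rde-4* mutants. *clec-87* (C25A1.8, chromosome I, 10184462 to 10185520) alone held 26.0% of it, and the 6 genes with the highest CPM held 65.3%. The exons of *clec-87* share 138 bases with *iars-2* on the opposite strand, and whether the counting used strand is not stated. Of the 90 genes, 10 had a mean of 100 CPM or more, 22 lay between 10 and 100 CPM, 40 between 1 and 10 CPM and 18 under 1 CPM.

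Per kb of exon, which allows levels of genes to be compared, *clec-87* was also the highest, at a mean of 965 CPM per kb over the 12 libraries. It was followed by the gene at F56A4.2 (313 CPM per kb), *clec-91* (310 CPM per kb), the gene at Y19D10A.9 (271 CPM per kb), *clec-63* (261 CPM per kb) and *clec-88* (227 CPM per kb). F56A4.2 and Y19D10A.9 lie apart on chromosome V but both carry the name *clec-209* and have the same exon length of 891 bases, so reads may have been shared between them, and the split of their counts is uncertain. The order of the genes next to *clec-87* is not firm, since the 3 populations of *age-1* mutants spread from 186 to 333 CPM at F56A4.2 alone. None of these 6 genes was called in any comparison.

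**Figure D1:**
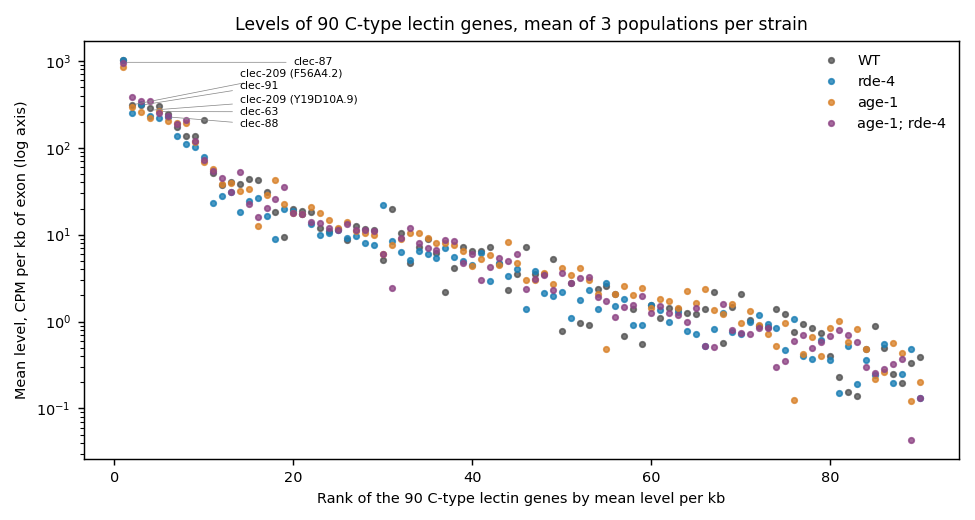
Mean level of each of the 90 C-type lectin genes per kb of exon (CPM per kb, log axis) against its rank, with 1 point per strain. *clec-87* stands above the rest at a mean of 965 CPM per kb, and the points of the 4 strains mostly lie close together for the higher genes.

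*clec-87* was at 1069.8, 901 and 1007 CPM in WT replicates 1, 2 and 3. It was at 981, 969 and 1018 CPM in *rde-4*, at 834, 803 and 832 CPM in *age-1*, and at 716, 988 and 1003 CPM in *age-1; rde-4* mutants. The *age-1* libraries were below all WT libraries, but the difference did not pass the test (log2 change −0.27, edgeR adjusted p = 0.140). *clec-91* and *clec-88* had their highest library in WT replicate 1, at 333 and 369 CPM, and the other WT replicates lay within 216 to 279 CPM for both genes.

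Populations of the same strain differed. The highest library of a strain exceeded its lowest by a median of 1.57-fold in WT, 1.72-fold in *rde-4*, 1.59-fold in *age-1* and 1.82-fold in *age-1; rde-4* mutants. *clec-266* (chromosome X), picked for its spread after the values were seen, was at 0.571, 1.68 and 7.38 CPM in *rde-4* and at 0.160, 2.70 and 2.64 CPM in *age-1; rde-4* mutants. *clec-196*, chosen likewise, had a spread of at least 5.57-fold in each of the 4 strains. Neither gene was called in any comparison. The exons of *clec-266* share 193 bases with *kqt-1* on the opposite strand.

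The first comparison asks what loss of RDE-4 did to these genes in otherwise WT worms. Of the 90 genes, 7 were lower and 3 were higher in *rde-4* mutants compared to WT, which is 7.78% and 3.33% of them. Of all genes tested, 0.866% were lower and 3.63% were higher in the same comparison. The lower genes were *clec-86*, *clec-205*, *clec-47*, *clec-204*, *clec-227*, *clec-53* and *clec-51*, and the higher ones *clec-190*, *clec-142* and *clec-222*. Below 0 lay 62 of the 90 log2 fold changes, with a median of −0.33, against a median of −0.02 over all genes tested. At an unadjusted p under 0.05, 27 members were lower (4.96% of all genes were) and 8 were higher (9.46%).

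**Figure D2:**
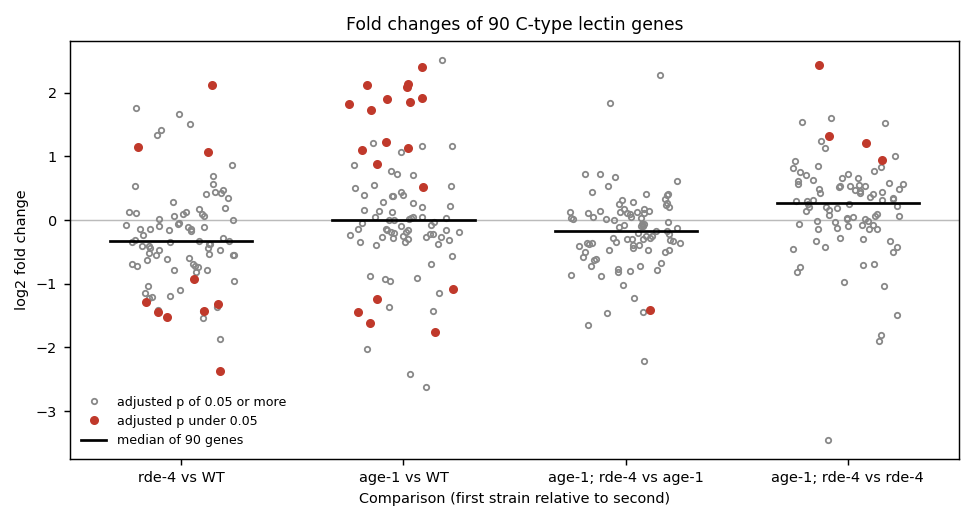
Log2 fold change (y axis) of each of the 90 C-type lectin genes in 4 comparisons of strains (x axis), with filled points for genes at an adjusted p under 0.05 and a bar for the median of the 90 genes. The median lay at −0.33 in *rde-4* against WT, at 0.00 in *age-1* against WT, at −0.17 in *age-1; rde-4* against *age-1* and at 0.28 in *age-1; rde-4* against *rde-4*.

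The gene that fell furthest was *clec-86* (C54D1.2, chromosome X, 7139875 to 7140566, 3 exons). It was at 3.98, 5.71 and 3.24 CPM in WT replicates 1, 2 and 3, and at 0.851, 1.05 and 0.601 CPM in *rde-4* mutants. The lowest WT library was well above the highest *rde-4* library (log2 change −2.37 ± 0.35 SE, edgeR adjusted p = 0.00294). Its exon shares 63 bases with *alh-10* on the opposite strand, and whether the counting used strand is not stated. In the other mutants *clec-86* was also below all WT libraries, at 2.41, 1.21 and 1.83 CPM in *age-1* and at 1.55, 1.72 and 0.973 CPM in *age-1; rde-4*.

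*clec-47* (T09F5.9, chromosome V, 15175759 to 15176324, 2 exons) was the most abundant of the lower genes. It was at 89.0, 119 and 119.6 CPM in WT and at 41.2, 33.98 and 45.6 CPM in *rde-4* mutants, with no overlap (log2 change −1.44 ± 0.24 SE, edgeR adjusted p = 0.00624). *clec-53* (T03F1.10, chromosome I, 3871474 to 3873402) was at 7.08, 8.47 and 5.30 CPM in WT and at 2.42, 2.99 and 3.12 CPM in *rde-4* mutants (log2 change −1.29 ± 0.20 SE, adjusted p = 0.00432). *clec-86*, *clec-47* and *clec-53* kept an adjusted p under 0.05 when any 1 of the 12 libraries was left out.

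*clec-204* and *clec-205* are neighbours on chromosome V (1757156 to 1765305), and both were lower in *rde-4* mutants. *clec-204* (Y46H3B.2) was at 4.40, 3.07 and 4.15 CPM in WT and at 1.45, 1.49 and 1.39 CPM in *rde-4* (log2 change −1.42 ± 0.26 SE, edgeR adjusted p = 0.00868). *clec-205* (Y46H3B.1) was at 4.18, 3.79 and 2.84 CPM in WT and at 0.965, 1.28 and 1.52 CPM in *rde-4* (log2 change −1.52 ± 0.29 SE, adjusted p = 0.0112). In both pairs of groups the lowest WT library was well above the highest *rde-4* library.

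*clec-227* (F08H9.5, chromosome V, 14472529 to 14474374) was at 3.95, 2.69 and 3.26 CPM in WT and at 1.27, 1.34 and 1.35 CPM in *rde-4* mutants (log2 change −1.32 ± 0.27 SE, edgeR adjusted p = 0.0157). *clec-51* (B0218.6, chromosome IV, 8161953 to 8163800) was at 34.2, 33.7 and 27.4 CPM in WT and at 17.7, 18.2 and 14.1 CPM in *rde-4* mutants (log2 change −0.93 ± 0.20 SE, adjusted p = 0.0201). *clec-51* shares 58 bases of exon with *faah-1* on the opposite strand. For both genes the *rde-4* libraries lay close together and below all WT libraries.

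*clec-190* (M199.4, chromosome IV, 15124931 to 15126121, 7 exons) went the other way. It was at 5.56, 3.55 and 2.58 CPM in WT replicates 1, 2 and 3, and at 24.2, 15.1 and 11.6 CPM in *rde-4* mutants. The groups did not overlap (log2 change 2.12 ± 0.45 SE, edgeR adjusted p = 0.0182). It was at 7.94, 3.18 and 2.52 CPM in *age-1* and at 5.83, 4.64 and 3.25 CPM in *age-1; rde-4* mutants, below all *rde-4* libraries. Its exons overlap 2 piRNA loci, *21ur-3208* on the same strand and *21ur-14830* on the opposite strand. *clec-222* (adjusted p = 0.0283) and *clec-142* (adjusted p = 0.0337) were also higher, with log2 fold changes of 1.07 and 1.15.

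These counts depended on single libraries. The 7 lower genes became 3 without WT replicate 1, 4 without *rde-4* replicate 1 or 2, and 11 without *age-1; rde-4* replicate 1, and the 3 higher genes became 0 without WT replicate 3 or *rde-4* replicate 1 or 2, and 5 without WT replicate 2 or *rde-4* replicate 3. DESeq2 called 12 lower and 7 higher, and edgeR with no filter on low counts 7 lower and 0 higher. Shares of all genes, here and below, were counted for the main edgeR fit alone. Counts of C-type lectin genes from other fits cannot be set against them. The summed level of 11 intestine markers moved in the same direction as the lower genes, 2518 to 2877 CPM in WT against 1809 to 1962 CPM for *rde-4*, with *asp-1* lower and no other of the 11 called. This sum is weighted by abundant markers. Means in WT and *rde-4* were 734 and 433 CPM for *asp-1* and 520 and 363 CPM for *spp-5*. The part of the intestine in the lower C-type lectin levels was not tested.

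**Figure D3:**
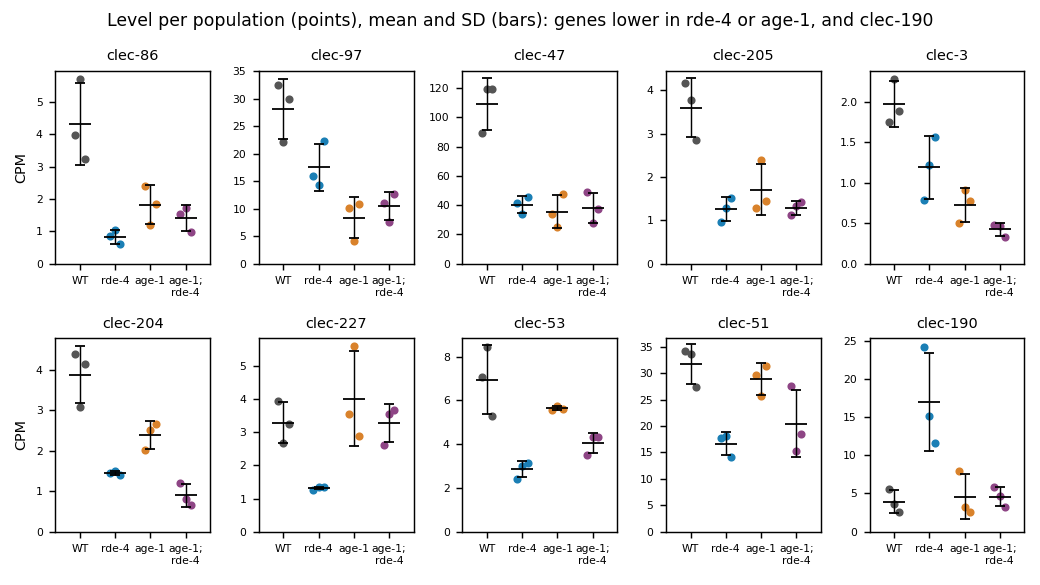
Level (CPM, y axis) of 9 genes called lower in *rde-4* or *age-1* mutants than in WT, and of *clec-190*, in each of the 3 populations of the 4 strains (points), with the mean and SD (bars). *clec-190* lay between 11.6 and 24.2 CPM in *rde-4* and at or under 7.94 CPM in every other library.

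The second comparison asks what reduced IIS did in worms with RDE-4. In *age-1* mutants compared to WT, 14 of the 90 genes were higher (15.6%) and 5 were lower (5.56%), where 12.2% and 2.58% of all genes tested were. The share of higher C-type lectin genes was thus near that of all genes. Of the 90 log2 fold changes, 45 lay above and 45 below 0, with a median of 0.00, against 0.03 over all genes tested. At an unadjusted p under 0.05, 21 were higher (21.1% of all genes) and 13 were lower (12.2%).

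The higher genes included 3 of the 7 members in a cluster of 12 *clec-* genes on chromosome IV (3922165 to 4014235). *clec-76* (Y46C8AR.1) was at 0.312, 0.494 and 0.465 CPM in WT replicates 1, 2 and 3, and at 1.65, 2.09 and 1.89 CPM in *age-1* mutants (log2 change 2.14 ± 0.39 SE, edgeR adjusted p = 0.00855). *clec-73* (Y46C8AL.1) was at 0.773, 1.41 and 0.811 CPM in WT and at 3.55, 5.37 and 4.11 CPM in *age-1* (log2 change 2.12 ± 0.37 SE, adjusted p = 0.00702). In both genes every *age-1* library was above every WT library, and these were the only higher genes whose adjusted p stayed under 0.05 when any 1 library was left out.

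*clec-79* (F47C12.4), at the same cluster, was at 2.61, 6.82 and 3.15 CPM in WT and at 11.9, 19.4 and 13.1 CPM in *age-1* mutants (log2 change 1.82 ± 0.50 SE, edgeR adjusted p = 0.0324). The other 4 members of the cluster, *clec-67*, *clec-72*, *clec-74* and *clec-75*, were not called in any comparison. *clec-74* was at 0.326, 0.700 and 0.439 CPM in WT, at 0.0264, 0.219 and 0.296 CPM in *age-1*, and had no count in *age-1; rde-4* replicate 1, the only 0 among the 90 genes.

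*clec-151* and *clec-153*, neighbours on chromosome III (4628465 to 4637534), were both higher in *age-1* mutants. *clec-151* (F10F2.7) was at 1.56, 2.54 and 1.29 CPM in WT and at 6.35, 10.6 and 6.07 CPM in *age-1* (log2 change 2.09 ± 0.41 SE, edgeR adjusted p = 0.0108). *clec-153* (F10F2.8) was at 0.855, 2.70 and 1.46 CPM in WT and at 5.04, 7.44 and 4.08 CPM in *age-1* (log2 change 1.72 ± 0.42 SE, adjusted p = 0.0211).

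Another pair of neighbours, *clec-222* and *clec-223* on chromosome V (11271351 to 11278161), was likewise higher. *clec-222* (C03E10.6) was at 11.3, 5.79 and 6.51 CPM in WT, at 15.9, 18.2 and 15.3 CPM in *rde-4*, at 17.4, 23.2 and 14.8 CPM in *age-1* and at 25.2, 34.3 and 29.3 CPM in *age-1; rde-4* mutants. It was called in both single mutants (log2 fold change in *age-1* against WT 1.23 ± 0.25 SE, edgeR adjusted p = 0.0116). *clec-223* (C03E10.5) was at 11.7, 15.0 and 13.2 CPM in WT and at 23.1, 27.2 and 23.0 CPM in *age-1* mutants (log2 change 0.88 ± 0.22 SE, adjusted p = 0.0239).

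Among the lone genes, *clec-117* (B0432.12, chromosome II, 296227 to 297011) had the largest fold change. It was at 0.353, 0.905 and 0.186 CPM in WT and at 2.85, 2.94 and 1.88 CPM in *age-1* mutants (log2 change 2.41 ± 0.61 SE, edgeR adjusted p = 0.0247). *clec-119* (chromosome II) was at 0.204, 0.576 and 0.106 CPM in WT and at 1.25, 1.00 and 1.095 CPM in *age-1* (log2 change 1.92, adjusted p = 0.0260). Its WT mean of 0.295 CPM lay under the threshold of 0.3 CPM, so it was included through its levels in the mutants. *clec-175* (chromosome IV) was at 0.678, 2.06 and 0.904 CPM in WT and at 4.66, 5.61 and 3.29 CPM in *age-1* (log2 change 1.90, adjusted p = 0.0260).

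Smaller or more abundant changes completed the list. *clec-146* (Y48E1B.9, chromosome II, 13590641 to 13593774) was at 3.26, 3.57 and 2.82 CPM in WT and at 7.98, 6.61 and 6.65 CPM in *age-1* mutants (log2 change 1.14 ± 0.20 SE, edgeR adjusted p = 0.00710). *clec-1* (F25B4.9, chromosome V, 5700154 to 5701080), the most abundant of the higher genes per kb, was at 104, 107 and 103 CPM in WT and at 133, 174 and 144 CPM in *age-1* mutants (log2 change 0.53 ± 0.14 SE, adjusted p = 0.0274). *clec-142* (log2 change 1.09, adjusted p = 0.0242) was higher in both single mutants than in WT. *clec-123*, named after its values were seen, had a log2 fold change of 1.86 (adjusted p = 0.0259).

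**Figure D4:**
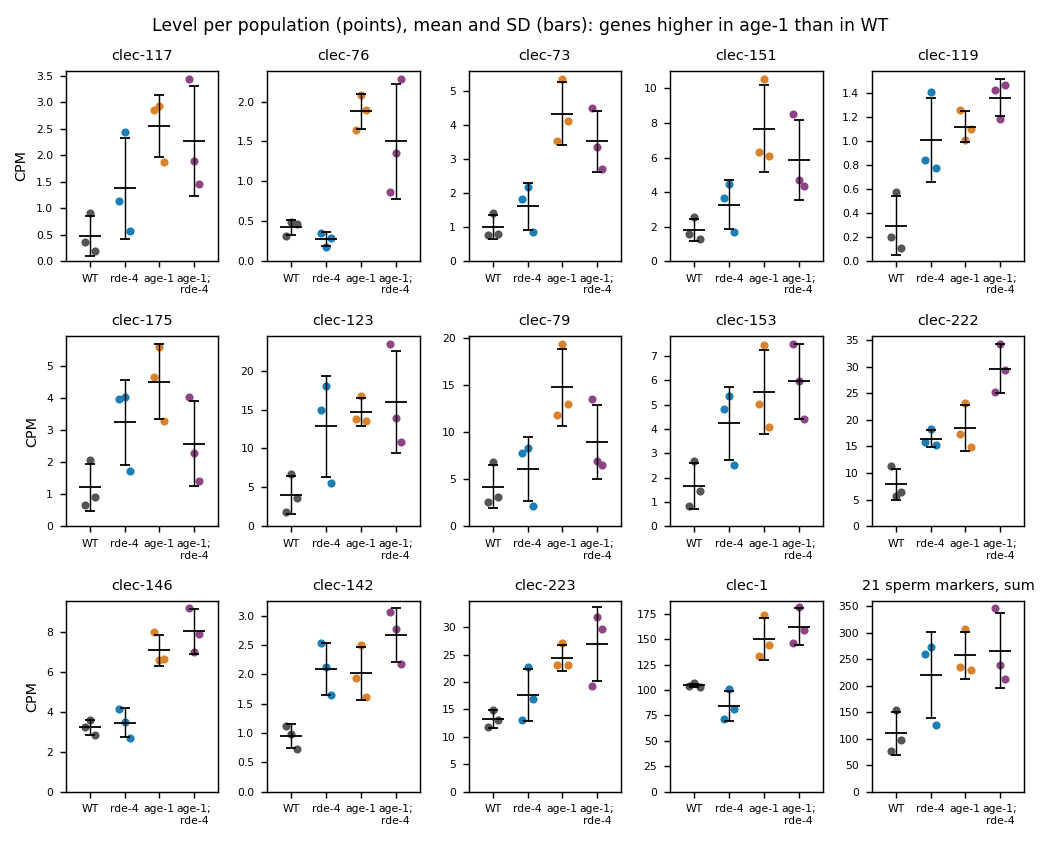
Level (CPM, y axis) of the 14 genes called higher in *age-1* mutants than in WT, and the summed level of 21 sperm markers, in each of the 3 populations of the 4 strains (points), with the mean and SD (bars). Every *age-1* library was above every WT library in each of the 14 genes. The genes were called from these same libraries, so the gap is no further support for the calls.

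Sperm markers were higher in the same strains. The summed level of 21 of them was 77.0, 155 and 97.2 CPM in WT replicates 1, 2 and 3, 259.7, 274 and 127 CPM in the *rde-4* libraries, 234.9, 308 and 229 CPM in *age-1*, and 346, 239 and 213 CPM in *age-1; rde-4* mutants. Of these 21 markers, 14 were higher in *age-1* mutants than in WT (66.7%, against 12.2% of all genes tested). In *rde-4* mutants 5 were higher than in WT (23.8%, against 3.63% of all genes), and no marker was at 0 over a whole strain. The order of the 3 libraries within each strain was compared as well. Of the 14 higher C-type lectin genes, 12 in WT, 11 in *rde-4*, 12 in *age-1* and 9 in *age-1; rde-4* mutants had their highest level in the library with the most sperm marker RNA, as had 39, 38, 27 and 27 of the other 76 genes. In the library with the least sperm marker RNA, 7, 11, 8 and 8 of the 14 genes had their lowest level in these strains, as had 27, 31, 17 and 19 of the other 76. These counts are no test, since the 14 genes were chosen from the same WT and *age-1* libraries and genes measured in the same library are not independent. The part of sperm in these C-type lectin levels was not tested. Of 17 cuticle collagen markers tested, 3 were higher in *age-1* mutants (17.6%, against 12.2% of all genes). Their summed level over the whole list was 1435 to 2234 CPM in WT and 2560.0 to 2809 CPM in *age-1*.

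The 5 lower genes in *age-1* mutants were *clec-97*, *clec-47*, *clec-3*, *clec-86* and *clec-205*. *clec-97* (ZK39.6, chromosome I, 11152704 to 11154330) was at 32.5, 22.0 and 29.96 CPM in WT and at 10.04, 4.12 and 10.9 CPM in *age-1* mutants (log2 change −1.75 ± 0.33 SE, edgeR adjusted p = 0.00954). Its exons share 118 bases with *clec-98* on the opposite strand. *clec-47* was at 33.7, 25.2 and 47.9 CPM in *age-1* mutants, also below all WT libraries (log2 change −1.62 ± 0.25 SE, adjusted p = 0.00351). *clec-97* and *clec-47* kept their call whichever single library was left out.

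*clec-3* (C41H7.7, chromosome II, 3017468 to 3019907) was at 1.75, 2.29 and 1.89 CPM in WT, at 0.501, 0.914 and 0.773 CPM in *age-1* and at 0.479, 0.463 and 0.336 CPM in *age-1; rde-4* mutants (log2 fold change in *age-1* against WT −1.44 ± 0.33 SE, edgeR adjusted p = 0.0186). It shares 47 bases of exon with C41H7.2 on the opposite strand. *clec-86* (log2 change −1.24, adjusted p = 0.0302) and *clec-205* (log2 change −1.07, adjusted p = 0.0286) were called lower in both single mutants, as was *clec-47*. The summed level of the 11 intestine markers was also below every WT library in *age-1* mutants, at 2108 to 2355 CPM, with *asp-1* lower (adjusted p = 0.0199) and *ges-1* higher (adjusted p = 0.0208), and its part in the lower C-type lectin levels was not tested.

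The comparisons of *rde-4* and of *age-1* with WT use the same WT libraries, and the other comparisons below share strains in the same way. The counts of genes called in *age-1* mutants depended on single libraries as well. The 14 higher genes became 2 without WT replicate 3, 4 without WT replicate 1, 3 without *age-1* replicate 2 and 9 without *age-1* replicate 1. The 5 lower genes became 2 without WT replicate 1 or 3, 3 without any 1 of the *age-1* replicates, and 8 without *age-1; rde-4* replicate 1. With no filter on low counts 8 were higher and 3 lower (shares of all genes not counted).

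The third comparison asks what loss of RDE-4 did in worms with reduced IIS. In the double mutant relative to *age-1*, 1 of the 90 genes was lower (1.11%, against 0.107% of all genes tested) and 0 were higher (0.317% of all genes). At an unadjusted p under 0.05, 13 were lower (5.82% of all genes) and 4 were higher (5.22%). DESeq2 called 2 lower and 0 higher (shares of all genes not counted). The median log2 fold change was −0.17, with 54 of 90 below 0, against −0.06 over all genes tested. Intestine markers summed to 1720 to 2198 CPM in the double mutant and 2108 to 2355 CPM in *age-1*. Of these markers *pept-1* was called lower (edgeR adjusted p = 0.0368), a call lost in 11 fits with a library left out, and no other was called. Their part in the C-type lectin levels was not tested.

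The gene called was *clec-204*, at 2.01, 2.50 and 2.67 CPM in *age-1* and at 1.20, 0.816 and 0.661 CPM in *age-1; rde-4* mutants (log2 change −1.42 ± 0.26 SE, edgeR adjusted p = 0.0372). The groups did not overlap, but the call was lost on leaving out any 1 of 10 of the 12 libraries, with an adjusted p of up to 0.204. It held only without WT replicate 2 or *age-1; rde-4* replicate 1, where 2 genes were lower, and without WT replicate 1 there was 1 higher gene. Among the 13 lower genes at an unadjusted p, 2 are given after their values were seen. *clec-166* (chromosome IV) was at 3.80, 4.11 and 2.58 CPM in *age-1* and at 0.663, 0.877 and 0.721 CPM in the double mutant (log2 change −2.21, adjusted p = 0.113). *clec-10* (C03H5.1, chromosome II) was at 28.8, 30.1 and 17.99 CPM in WT, at 12.5, 13.4 and 7.34 CPM in *rde-4*, at 12.8, 7.80 and 9.17 CPM in *age-1* and at 6.02, 1.41 and 2.07 CPM in *age-1; rde-4* mutants. Its libraries of the double mutant were below all others, but no comparison of *clec-10* passed the test (log2 fold change against *age-1* −1.65, adjusted p = 0.168).

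The fourth comparison asks what reduced IIS did in worms without RDE-4. In the double mutant relative to *rde-4*, 4 of the 90 genes were higher (4.44%, against 1.34% of all genes tested) and 0 were lower (0.245% of all genes). At an unadjusted p under 0.05, 18 were higher (8.58% of all genes) and 7 were lower (5.47%). DESeq2 called 8 higher and 5 lower (shares of all genes not counted). The median log2 fold change was 0.28, with 61 of 90 above 0, against 0.01 over all genes tested. Intestine markers summed to 1720 to 2198 CPM in the double mutant and 1809 to 1962 CPM in *rde-4*. Of these markers *ges-1* and *spp-5* were called higher and *pept-1* lower, and their part in the C-type lectin levels was not tested.

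*clec-76* was at 0.355, 0.179 and 0.294 CPM in *rde-4* and at 0.871, 1.35 and 2.28 CPM in *age-1; rde-4* mutants (log2 change 2.44 ± 0.40 SE, edgeR adjusted p = 0.0104). *clec-146* was at 4.14, 3.51 and 2.70 CPM in *rde-4* and at 9.23, 6.98 and 7.88 CPM in the double mutant (log2 change 1.22 ± 0.20 SE, adjusted p = 0.0104). *clec-1* was at 71.6, 101 and 81.0 CPM in *rde-4* and at 146, 182 and 159 CPM in the double mutant (log2 change 0.94 ± 0.14 SE, adjusted p = 0.00682). For each of these 3 genes all libraries of the double mutant were above all *rde-4* libraries, and each was also called higher in *age-1* mutants than in WT.

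*clec-227* was at 2.63, 3.54 and 3.69 CPM in *age-1; rde-4* mutants, above all *rde-4* libraries (log2 change 1.32 ± 0.27 SE, edgeR adjusted p = 0.0311), and at 3.55, 5.63 and 2.90 CPM in *age-1* mutants. *clec-1* kept its call whichever library was left out. The 4 higher genes became 2 without *rde-4* replicate 2 or 3 and 7 without *age-1; rde-4* replicate 1, and the 0 lower genes became 1 without *age-1* replicate 1 and 2 without *age-1; rde-4* replicate 1. All 4 higher genes kept their call without that library, which stood apart in its oocyte and sperm markers. *clec-227* lost its call without *rde-4* replicate 1, 2 or 3 or *age-1* replicate 1. It also did without *age-1; rde-4* replicate 2 or 3, with an edgeR adjusted p of up to 0.122. *clec-76* lost its call without *rde-4* replicate 2, and *clec-146* without *rde-4* replicate 3. With only these 2 strains fitted, *clec-1* alone kept its call (adjusted p = 0.0475, against 0.0665 to 0.0901).

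Whether RDE-4 loss acted differently in the 2 backgrounds was tested as an interaction, the log2 fold change of *age-1; rde-4* over *age-1* minus that of *rde-4* over WT. Of the 90 genes, 0 were called in either direction, where 0.0538% of all genes tested were higher and 0.0597% lower. At an unadjusted p under 0.05, 12 were higher (3.8% of all genes) and 5 were lower (8.17%). DESeq2 called 3 higher and 2 lower (shares of all genes not counted). The lowest p-values belonged to *clec-47* (interaction 1.54, edgeR adjusted p = 0.141), *clec-86* (2.01, adjusted p = 0.174), *clec-85* (1.82, adjusted p = 0.209), *clec-190* (−2.11, adjusted p = 0.253) and *clec-175* (−2.22, adjusted p = 0.274), all on the log2 scale.

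These are also the 5 genes that DESeq2 called. *clec-47*, lower in each single mutant than in WT, was at 48.7, 27.9 and 37.3 CPM in the double mutant, which overlaps both single mutants. *clec-85* was at 52.3, 50.9 and 63.9 CPM in WT, at 17.1, 28.9 and 32.1 CPM in *rde-4*, at 28.6, 52.6 and 56.0 CPM in *age-1* and at 37.5, 100.2 and 89.0 CPM in *age-1; rde-4* mutants. *clec-85* shares 397 bases of exon with Y54G2A.40 on the same strand, so its reads cannot be told apart from those of that gene over this stretch.

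Many of the genes lie in clusters, as is common in this family. Within 20 kb of another *clec-* gene lay 56 of the 90 genes, and 15 clusters held 2 or more of them. By chromosome, 28 were on V, 25 on IV, 20 on II, 8 on I, 6 on III and 3 on X. In the *clec-51* and *clec-52* pair on chromosome IV, *clec-51* was lower in *rde-4* mutants, and *clec-52*, chosen after its values were seen, was at 19.3, 21.7 and 12.7 CPM in WT and at 43.2, 44.5 and 36.4 CPM in *age-1* (log2 change 1.21, edgeR adjusted p = 0.0824). *clec-51* in the same libraries was at 29.7, 25.6 and 31.3 CPM in *age-1*, close to WT.

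*clec-227* lies between *clec-57* and *clec-56*, with *clec-54* next to *clec-56* (chromosome V, 14469231 to 14482317). *clec-56* was at 54.0, 51.3 and 51.9 CPM in WT and at 40.3, 39.5 and 41.3 CPM in *rde-4* mutants, and *clec-57* was at 16.5, 14.7 and 12.8 CPM in WT and at 8.92, 9.29 and 10.9 CPM in *rde-4*. Neither difference passed the test (edgeR adjusted p = 0.0590 and 0.0578), although the groups did not overlap. *clec-145*, beside *clec-146*, was at 0.271, 0.713 and 0.651 CPM in WT and at 0.937, 1.56 and 0.953 CPM in *age-1* mutants and was not called. Its exons share 226 bases with Y48E1B.8 on the opposite strand.

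**Figure D5:**
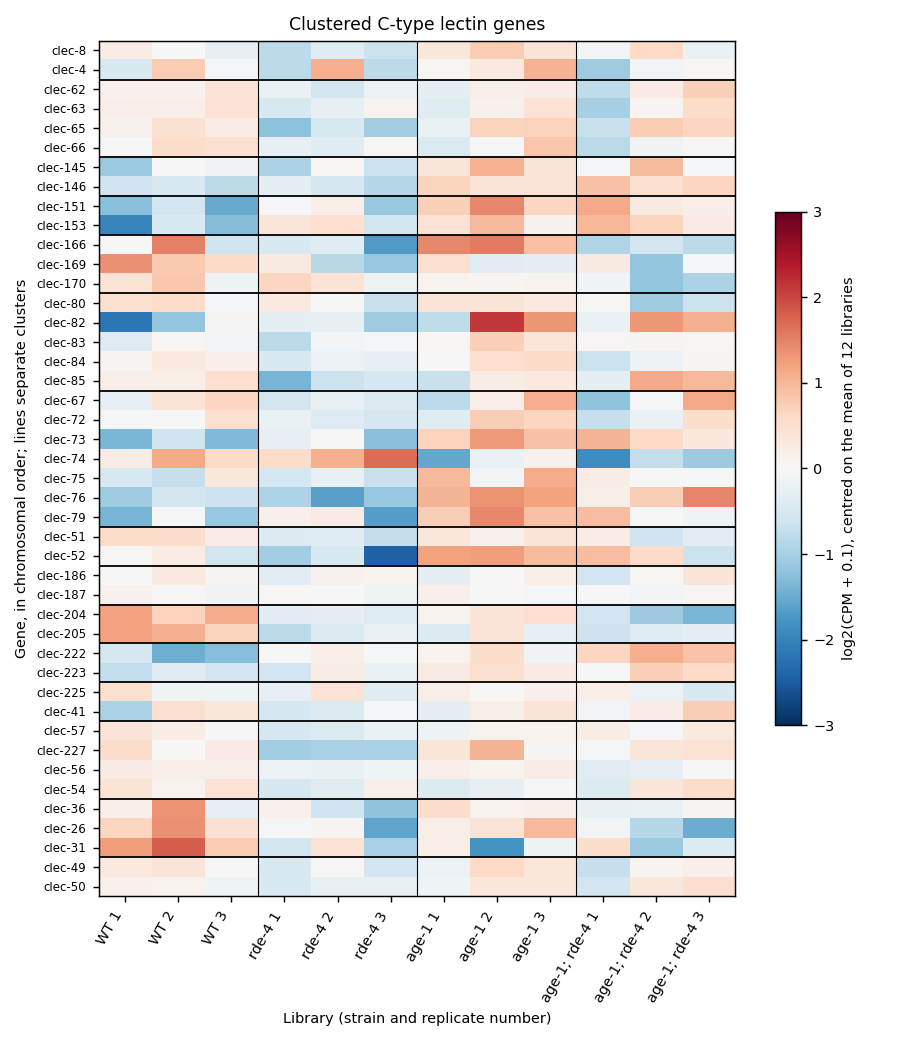
Level of 44 C-type lectin genes that lie in 15 chromosomal clusters (rows, separated by lines) in the 12 libraries (columns), as log2(CPM + 0.1) centred on the mean of the 12 libraries. *clec-204* and *clec-205* were high in WT, and *clec-151* and *clec-153* were low in WT.

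A list of 13 *clec-* genes linked to bacteria in earlier work was examined by itself, and 8 of its genes are among the 90. It holds *clec-39* and *clec-49*, whose products bind *Serratia marcescens*, *clec-4*, *clec-41* and *clec-42*, which affect the response to *Bacillus thuringiensis*, *clec-60*, *clec-70* and *clec-71*, induced by *Staphylococcus aureus*, *clec-63*, *clec-65* and *clec-67*, induced by *Serratia*, and *clec-85*, which depends on the p38 kinase PMK-1, together with *clec-61*. Of 11 that could be tested, 0 were called in any comparison by edgeR. Of all genes tested, 3.63% were higher and 0.866% lower in *rde-4* and 12.2% and 2.58% in *age-1* mutants than in WT. In either direction of the other comparisons at most 1.34% were called, so 0 of 11 does not set these genes apart. The 11 genes had a median log2 change of −0.47 in *rde-4* against WT (−0.02 over all genes) and 0.08 in *age-1* against WT (0.03). It was −0.10 in *age-1; rde-4* against *age-1* (−0.06) and 0.56 in *age-1; rde-4* against *rde-4* (0.01).

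The most abundant of them was *clec-63* (F35C5.6, chromosome II, 12895638 to 12897446), at 373, 373 and 440.4 CPM in WT, at 233, 273 and 348 CPM in *rde-4*, at 252, 353 and 442 CPM in *age-1* and at 163, 345 and 474 CPM in *age-1; rde-4* mutants. *clec-65*, its neighbour, was at 53.9, 66.7 and 57.1 CPM in WT and at 20.9, 35.9 and 23.9 CPM in *rde-4* mutants (log2 change −1.14, edgeR adjusted p = 0.0896). The *rde-4* libraries lay below all WT libraries for both genes, and in *age-1; rde-4* mutants replicate 1 was the lowest for both.

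*clec-41* was at 50.1, 135 and 119 CPM in WT, and *clec-67* was at 2.47, 5.54 and 12.9 CPM in *age-1; rde-4* mutants. In WT, *clec-49* ranged from 7.83 to 10.4 CPM, *clec-4* from 0.909 to 2.26 CPM and *clec-60* from 0.133 to 0.434 CPM. In *rde-4* mutants the ranges were 5.26 to 8.13, 0.686 to 2.86 and 0.0368 to 0.676 CPM, so the groups overlapped for each gene. *clec-39* and *clec-42* had 0 counts in all WT libraries, which allows up to 3 counts in each.

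Other genes of the immune response were counted from lists. Of 23 regulators of intestinal immunity, all tested, the protein kinase C gene *tpa-1* was higher in *age-1* mutants than in WT, from 5.12, 7.61 and 5.84 CPM to 9.68, 10.04 and 9.13 CPM (log2 change 0.64, edgeR adjusted p = 0.0339), and no other regulator was called in any comparison. This is 4.35% of the 23, below the 12.2% of all genes tested that were higher in *age-1* mutants. Of 72 genes of other immune effectors, such as lysozymes and antimicrobial peptides, 53 could be tested. Of these 53, 1 was higher (1.89%, against 3.63% of all genes tested) and 3 were lower (5.66%, against 0.866%) in *rde-4* mutants than in WT. In *age-1* mutants 9 were higher (16.98%, against 12.2% of all genes) and 1 was lower (1.89%, against 2.58%). In the double mutant relative to *rde-4*, 7 were higher (13.2%, against 1.34% of all genes) and 1 was lower (1.89%, against 0.245%), and relative to *age-1* edgeR called 0. Of these 7, *spp-5* lost its call in 9 of the 12 fits with 1 library left out, *lys-7* in 8 and *lys-2* in 6. *irg-4* lost it in 4, *cnc-3* in 3 and *abf-2* in 1, and *spp-2* kept it in all. *spp-5* is also among the intestine markers.

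The lysozyme gene *lys-5* was lower in both single mutants, at 5.79, 3.32 and 6.71 CPM in WT, at 0.622, 0.587 and 0.711 CPM in *rde-4* (log2 change −3.04, edgeR adjusted p = 0.000849) and at 0.924, 1.15 and 0.786 CPM in *age-1* mutants (log2 change −2.47, adjusted p = 0.00238). The lysozyme gene *lys-7* was at 14.04, 12.99 and 3.60 CPM in WT and at 66.5, 109 and 44.7 CPM in *age-1* mutants (log2 change 2.85, adjusted p = 0.00922). The antibacterial factor gene *abf-2* had 6, 6 and 0 counts in the WT libraries and was at 2.74, 2.97 and 1.76 CPM in *age-1* (log2 change 5.48, adjusted p = 0.00201), a fitted value that rests on few WT counts. The immune response gene *irg-5* was higher in *rde-4* mutants than in WT (log2 change 2.97, adjusted p = 0.000782) and lower in the double mutant than in *rde-4* (log2 change −1.93, adjusted p = 0.00889).

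Of the 150 *clec-* genes below the threshold, 27 passed the filter on low counts, and 1 was called in any comparison. *clec-260* was higher in *age-1* mutants than in WT, at means of 0.281 and 0.0177 CPM (log2 change 3.86 ± 1.15 SE, edgeR adjusted p = 0.0426). The WT libraries held 0, 0 and 4 counts of it, the fitted value ran from 3.32 to 7.46 with single libraries left out, and the call was lost in 8 of these 12 fits, with an adjusted p of up to 0.152. In all, 24 of the 90 genes were called in at least 1 of the 5 comparisons and 66 in none. The share of all genes tested that were called in at least 1 comparison was not counted. Neither 24 of 90 nor 1 of 27 can therefore be read as many or few.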

How the data were processed

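Ribosomal RNA-depleted, strand-specific libraries of 12 worm populations were sequenced as 150 bp paired-end reads. Per the study's methods, the authors aligned them to WBcel235 using HISAT2 2.0.5 and counted per gene with StringTie (version not given in the sources used here). The deposited table holds whole-number read counts per gene without normalization, in 1 column per library, and 0 columns were left out. Identifiers are sequence names, of which 45622 matched 1 annotated gene, 559 matched several and 472 matched none. How reads that map to several genes were counted, and whether strand was used, is not given in the sources used here, so values of *clec-* genes with near copies or overlapping exons are less certain. Library totals were 74501098 to 82446102 counts, and a member under 1 CPM rests on few counts per library.

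The count model was run in edgeR 4.0.16 under R 4.3.3: filterByExpr with the 4 groups, TMM factors, and 1 quasi-likelihood model (glmQLFit, glmQLFTest, two-sided) of the 4 groups fitted to all 12 libraries and all 16741 genes kept. The Benjamini-Hochberg adjustment covered these 16741 genes, and an adjusted p under 0.05 was called. SE is the log2 fold change divided by the square root of the F statistic. The test was checked on simulated counts. Replicates of a strain differed by more than counting noise (chi-square per gene of 27.2 to 187), and none was treated as a copy of another.

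Alternatives were RLE size factors, DESeq2 1.42.0, no filter, the 2 groups compared alone, replicate number as a block, unadjusted p-values, and each library left out in turn. Named are the 6 largest called changes per comparison and direction, the 6 highest genes per kb, the 2 genes on each side of the CPM threshold, the genes linked to bacteria, *clec-* neighbours within 20 kb of the largest called changes, and up to 4 called genes per immune list. Others are marked as chosen after their values were seen. The genes, lists and tests were chosen with earlier results of these data known. Small RNA data and sequences were not used here.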

Additional observations from a re-analysis of the deposited data

How the results depend on the processing

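All 34 calls of C-type lectin genes remained with RLE size factors, DESeq2 and the replicate block, 13 were lost when all genes were kept, 7 when the groups compared were fitted alone, and 102 of 408 when single libraries were left out. No called change reversed under these settings.

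With DESeq2 the counts were 7 higher and 12 lower in *rde-4* against WT, 8 lower in *age-1* against WT, 2 lower in *age-1; rde-4* against *age-1*, 8 higher and 5 lower in *age-1; rde-4* against *rde-4*, and 3 higher and 2 lower for the interaction. With no filter they were 0 higher in *rde-4*, 8 higher and 3 lower in *age-1*, and 0 lower in *age-1; rde-4* against *age-1*. With only the groups compared 1 gene was higher in *rde-4* against WT and 1 in *age-1; rde-4* against *rde-4*. RLE gave 1 lower gene in *age-1; rde-4* against *rde-4*. At an unadjusted p under 0.05, *rde-4* had 8 higher and 27 lower, *age-1* 13 lower, *age-1; rde-4* against *age-1* 4 higher and 13 lower, *age-1; rde-4* against *rde-4* 18 higher and 7 lower, and the interaction 12 higher and 5 lower. Shares of all genes were counted for the main fit alone, so the counts of other fits cannot be set against them. The causes were not tested.

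With each library left out in turn, *rde-4* against WT had 0 to 5 higher and 3 to 11 lower genes, *age-1* against WT 2 to 16 and 2 to 8, *age-1; rde-4* against *age-1* 0 to 1 and 0 to 2, *age-1; rde-4* against *rde-4* 2 to 7 and 0 to 2, and the interaction 0 in either direction.

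Replicate numbers were not treated as pairs. Same-numbered libraries of 2 strains had deviations from their strain means correlated at −0.02 to 0.37, over 0.1 in 12 of 18 pairs, and 27 of 36 pairs of a library and another strain were best correlated with the same number. With the replicate block, 6 genes were higher and 15 lower in *rde-4*, 20 higher and 9 lower in *age-1*, 3 lower in *age-1; rde-4* against *age-1*, and 12 higher and 4 lower in *age-1; rde-4* against *rde-4*. For the interaction 2 were then higher, *clec-47* and *clec-85*, and 1 was lower, *clec-190*, where the main fit called 0.

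Depth limits the 18 genes under 1 CPM most, and with 3 populations per strain a gene that was not called is not shown to be alike between strains.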

Other observations

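RefSeq names 25 further genes *clec-* that carry no such WormBase gene name, and 4 of them reached a mean of 0.3 CPM. All 4 are annotated as pseudogenes and were not counted among the 90. *clec-152* (F10F2.6, chromosome III, 4632407 to 4634428), which lies between *clec-151* and *clec-153*, was at 0.394, 0.659 and 0.532 CPM in WT and at 1.41, 3.49 and 1.79 CPM in *age-1* mutants (log2 change 2.08, edgeR adjusted p = 0.0221). *clec-154* (F10F2.5), next to *clec-153* on its other side, was at 0.231, 0.398 and 0.226 CPM in WT and at 0.844, 2.14 and 1.66 CPM in *age-1* (log2 change 2.44, adjusted p = 0.0181). With *clec-151* and *clec-153*, 4 neighbouring genes were thus called higher in *age-1* mutants, and whether reads were shared among them was not tested. *clec-236* (Y70C5C.5, chromosome V) was also higher (log2 change 2.71, adjusted p = 0.0260), and *clec-155* (T04A8.3) had a log2 fold change of 1.99 that did not pass the test (adjusted p = 0.0841). All 3 calls were lost without WT replicate 1, WT replicate 3 or *age-1* replicate 2, and that of *clec-236* also without *age-1* replicate 1, with adjusted p-values of up to 0.112.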
